A study of Mus musculus with 16 samples.

Results

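Livers of male mice were divided by how much serum amyloid A mRNA they held, and the livers with much of it were compared with those with little. The livers were selected on measured values: the score of a liver was the mean log ratio of Saa1, Saa2 and Saa3, and a score above -0.7 placed it in the high set. This gave 6 of the 16 arrays in the high set and 10 in the low set. The high set held 3 wild type (wt) mice and 3 mice heterozygous for a knockout of Lpl (Lpl+/-), and the low set held 5 of each. Since the sets were formed from measured values and not by a treatment, every comparison below asks which genes varied together with serum amyloid A across these livers.

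The study profiled total RNA from the livers of 8 Lpl+/- males and 8 wt male littermates on chow. Lpl encodes lipoprotein lipase, which releases fatty acids from circulating triglycerides. Each liver was set against the same pool of liver RNA from 9 wt males on 2-colour arrays with swapped dyes. Each mouse is a separate animal, and its age, and whether the 8 wt mice also gave RNA to the pool, are not given in the sources used here. Deposited ratios set each mouse over the pool, which is their likely direction, and they are taken as log10. If they were log2, every fold printed here would lie closer to 1, while no p-value would change. A ratio to a liver pool gives no level, so liver identity could not be checked by the level of liver markers.

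The acute phase response is the change in plasma proteins made by hepatocytes in inflammation or injury. Cytokines, above all interleukin 6 and interleukin 1, act through the factors STAT3, C/EBP and NF-kappaB to raise serum amyloid A, orosomucoid, haptoglobin and hemopexin, while albumin, transthyretin and many metabolic enzymes are lowered. Saa1 and Saa2 are hepatocyte products that bind high density lipoprotein, and Saa3 is made both in liver and in macrophages.

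In the high set the scores were 0.583 in Lpl+/- 4, 0.0227 in wt 8, -0.0430 in wt 7, -0.158 in Lpl+/- 1, -0.400 in wt 1 and -0.598 in Lpl+/- 7. In the low set they were -0.957 in wt 9, -1.25 in Lpl+/- 5, -1.31 in wt 2, -1.35 in Lpl+/- 3, -1.37 in wt 6, -1.40 in Lpl+/- 6, -1.40 in Lpl+/- 2, -1.45 in Lpl+/- 8, -1.50 in wt 4 and -1.64 in wt 5. Lpl+/- 4 thus stood at 3.83-fold of the pool and wt 5 at 0.0231-fold, and 14 of the 16 livers lay below the pool. The signs of wt 5 and wt 8 are not settled, as described after the sequences. With its sign turned, wt 5 had a score of 1.64, the highest of the 16, which moved it to the high set and left 13 livers below the pool. With its sign turned, wt 8 had a score of -0.0227 and stayed in the high set, with 15 livers below the pool. Saa1 ran from -0.511 through a median of -0.0432 to 0.513 in the high set and from -1.60 through -1.34 to -0.819 in the low set. Saa2 ran from -0.639 through -0.138 to 0.444 in the high set and from -1.67 through -1.42 to -1.01 in the low set. Saa3 ran from -0.645 through -0.120 to 0.794 in the high set and from -1.64 through -1.37 to -1.05 in the low set. All 3 genes ordered the livers much alike, the low set being tight apart from wt 9 and the high set spread out. These values formed the sets and are given as a description. The members on either side of the threshold were Lpl+/- 7 at -0.598 and wt 9 at -0.957. Each gene had 1 probe, and Saa1 and Saa2 are near-identical copies, so their probes may not tell them apart.

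**Figure D1:**
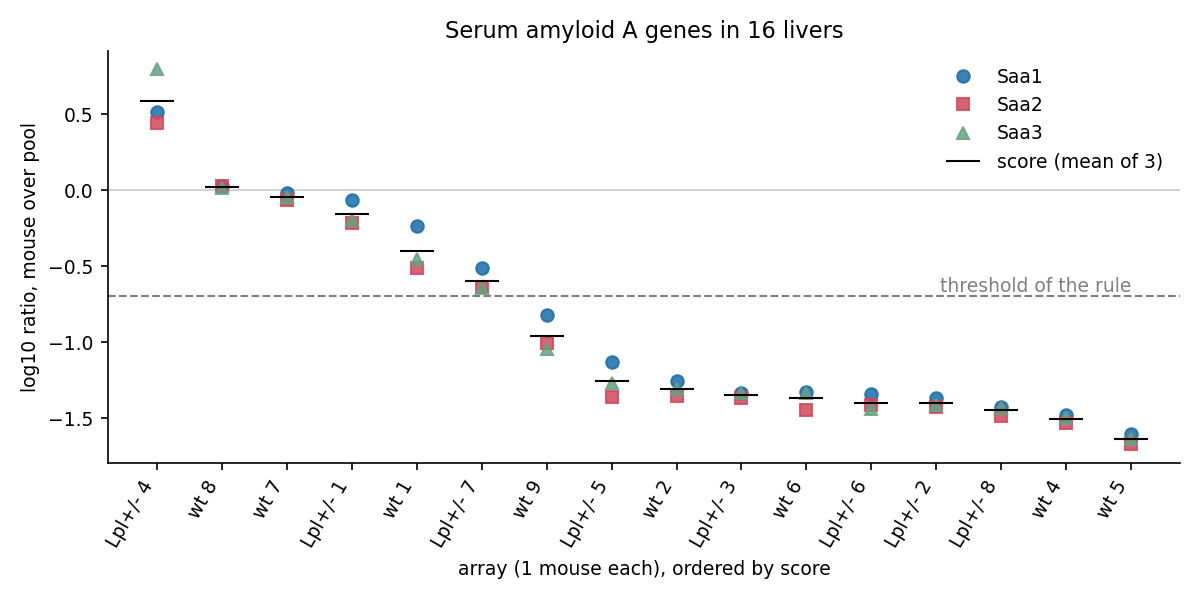
Log10 ratio to the pool of Saa1, Saa2, Saa3 and their mean in each of the 16 livers, ordered by the mean, with a dashed line at the threshold of -0.7. With signs as deposited, Lpl+/- 4 stands alone at the top at 0.583, and 9 of the 10 livers of the low set lie between -1.64 and -1.25.

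The promoters of 6 genes are printed to show the sequence upstream of the genes that formed the sets (Saa1, Saa2, Saa3) and of genes that varied with them (Orm2, Steap4, Cxcl1). Each run is the 250 bases before the start of the gene, 5′ to 3′, from RefSeq on GRCm38.p6. Saa1 lies at chr7:46742981-46743230 on the minus strand, Saa2 at chr7:46751583-46751832 on the plus strand and Saa3 at chr7:46715677-46715926 on the minus strand. Orm2 lies at chr4:63362199-63362448, Steap4 at chr5:7960222-7960471 and Cxcl1 at chr5:90890995-90891244, all on the plus strand. Capitals mark matches on either strand to TTGNGNAA for C/EBP, to TTCNNNGAA for STAT3, and for NF-kappaB to 3 G, any 2 bases, 3 T and 2 C.
Saa1: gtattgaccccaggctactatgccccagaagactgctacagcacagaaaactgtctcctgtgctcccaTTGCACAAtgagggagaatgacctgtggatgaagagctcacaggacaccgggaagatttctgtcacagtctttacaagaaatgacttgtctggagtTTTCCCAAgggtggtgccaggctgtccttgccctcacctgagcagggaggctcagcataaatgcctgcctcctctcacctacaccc
Saa2: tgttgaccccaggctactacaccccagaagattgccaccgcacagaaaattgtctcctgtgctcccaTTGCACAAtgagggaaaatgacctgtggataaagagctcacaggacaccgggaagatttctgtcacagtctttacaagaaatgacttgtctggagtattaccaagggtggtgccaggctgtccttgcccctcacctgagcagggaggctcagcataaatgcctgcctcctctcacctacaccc
Saa3: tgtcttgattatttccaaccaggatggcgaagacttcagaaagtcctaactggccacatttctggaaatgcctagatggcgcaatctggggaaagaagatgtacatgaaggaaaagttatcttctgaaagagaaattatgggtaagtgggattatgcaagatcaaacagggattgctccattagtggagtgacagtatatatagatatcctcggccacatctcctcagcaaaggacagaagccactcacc
Orm2: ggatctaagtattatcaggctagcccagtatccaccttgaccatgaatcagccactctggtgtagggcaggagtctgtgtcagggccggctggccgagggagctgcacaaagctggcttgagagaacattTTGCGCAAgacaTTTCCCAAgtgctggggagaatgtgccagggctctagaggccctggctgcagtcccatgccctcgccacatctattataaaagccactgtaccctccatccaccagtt
Steap4: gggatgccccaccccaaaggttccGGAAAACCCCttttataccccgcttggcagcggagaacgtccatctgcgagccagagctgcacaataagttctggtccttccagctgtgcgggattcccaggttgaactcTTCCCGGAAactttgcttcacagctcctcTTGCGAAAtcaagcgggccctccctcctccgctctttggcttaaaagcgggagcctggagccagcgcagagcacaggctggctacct
Cxcl1: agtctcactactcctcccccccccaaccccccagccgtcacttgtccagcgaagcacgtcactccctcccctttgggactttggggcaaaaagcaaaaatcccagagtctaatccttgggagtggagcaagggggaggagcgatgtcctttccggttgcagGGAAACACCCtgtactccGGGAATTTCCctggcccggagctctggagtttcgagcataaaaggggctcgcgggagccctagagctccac
The C/EBP letters occur in 11.7% of 32851 mouse promoters of this length, the NF-kappaB letters in 1.41% and the STAT3 letters in 7.02%. Saa1 holds the C/EBP letters at -182 and -86 from its start, Saa2 at -183, and Orm2, which encodes an orosomucoid, at -120 and -108. Steap4, a metalloreductase gene, holds the letters of all 3 factors, and Cxcl1, a chemokine gene, holds the NF-kappaB letters at -89 and -71. The Saa1 and Saa2 windows are identical at 238 of 249 aligned bases (95.6%). No match was found in the Saa3 window, which says only that these letters are not in it. The 6 printed genes are part of 18 genes whose windows were searched. Among those not printed, Lrg1, Etnppl, Mt1, Mt2 and Asns held no match. Saa4, Lcn2, Orm3, Hpx, Il6, Socs3 and Fgf21 held a match to the letters of at least 1 factor. The printed windows therefore do not show how common such matches are among genes that varied with serum amyloid A. A match is a description of the sequence and no evidence of binding.

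Across the series, array medians lay between -0.0045 and 0.0072, and each array had 0 to 88 values at the ends of the scale. Over all probes, the median correlation was 0.0380 for 15 pairs within the high set, 0.107 for 45 pairs within the low set and -0.0602 for 60 mixed pairs. The lowest was -0.352, between wt 5 of the low set and wt 8 of the high set. That value alone does not show a turned sign. Within the high set wt 8 correlated at -0.239 (Lpl+/- 1) to 0.381 (wt 7). Within the low set wt 5 correlated at -0.0366 (wt 2) to 0.364 (wt 4). The direction of the arrays is inferred, and that of wt 5 and wt 8 is not settled. Values below have the signs as deposited unless a turned sign is named. The count of calls, the genes called with all arrays, the gene lists and the comparison of genotypes were repeated with each sign turned in turn, the sets being formed anew. Precision is limited by the number of arrays.

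The livers of the high set had higher Steap4, Lrg1, Saa4, Pgm3, Cgref1, Flot2 and Mmp12 mRNA and lower Etnppl mRNA. In all, 13 of 36821 features (0.0353%) differed between the sets at an adjusted p under 0.05 (limma with genotype as covariate, Benjamini-Hochberg over all features), 12 of them higher (0.0326%) and 1 lower (0.00272%). Of these, 8 had a gene symbol. The limma unadjusted p was under 0.05 for 6.40% of features in the higher and 5.34% in the lower direction. With no treatment behind the sets, a small p says only that a gene varied with the score. Leaving out 1 array moved the count of 13 to between 2 (without wt 7) and 94 (without wt 9), and turning the sign of wt 5 or wt 8 moved it to 9 or 2. With wt 8 turned none of the 8 named genes was called, at limma adjusted p of 0.747 for Etnppl, Cgref1 and Pgm3, 0.717 for Lrg1, 0.643 for Steap4 and Saa4, 0.503 for Flot2 and 0.133 for Mmp12. With wt 5 turned Lrg1 and Mmp12 were not called (limma adjusted p = 0.0548 for each).

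Steap4, which encodes a plasma membrane metalloreductase induced by inflammatory cytokines, ran from 0.0745 through a median of 0.186 to 0.314 in the high set and from -0.356 through -0.247 to 0.0474 in the low set. The sets did not overlap, and wt 9, the liver of the low set nearest the threshold, was the highest of the low set. Steap4 was 2.59-fold higher in the high set (difference 0.413 ± 0.0513 SE, limma adjusted p = 0.0108), with an exact two-sided permutation p of 0.000125, the smallest that 8008 assignments can give. The permutation p leaves out genotype and is not adjusted for naming Steap4 by this same difference. Other genes with no overlap, Lrg1 and Lcn2 among them, had the same permutation p. Lrg1, which encodes a leucine-rich plasma glycoprotein of the acute phase, ran from -0.0896 through 0.0825 to 0.497 in the high set and from -0.486 through -0.327 to -0.133 in the low set. The sets did not overlap, with Lpl+/- 4 at the top and wt 9 the highest of the low set. Lrg1 was 2.93-fold higher (limma adjusted p = 0.0476, and 0.0522 without Lpl+/- 4).

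Saa4, the serum amyloid gene expressed constitutively and the neighbour of the 3 scored genes on chromosome 7, ran from -0.0343 through 0.0846 to 0.162 in the high set and from -0.0958 through -0.0736 to 0.0355 in the low set. The sets overlapped through wt 1 of the high set and Lpl+/- 3 and Lpl+/- 5 of the low set. Saa4 was 1.37-fold higher (limma adjusted p = 0.0374, and 0.0711 without Lpl+/- 4). Cross-hybridization among serum amyloid genes was not tested.

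Pgm3, which encodes an enzyme of the pathway to UDP-N-acetylglucosamine, the sugar donor of glycoproteins, ran from 0.0171 through 0.0728 to 0.152 in the high set and from -0.210 through -0.0925 to -0.0347 in the low set. The sets did not overlap, and Pgm3 was 1.52-fold higher (limma adjusted p = 0.0198, and 0.0511 without Lpl+/- 4). Cgref1, which encodes a secreted EF-hand protein, ran from -0.201 through 0.117 to 0.354 in the high set and from -0.450 through -0.314 to -0.176 in the low set. The sets overlapped through Lpl+/- 4, the liver with most serum amyloid A, and its fold was 2.60 with all arrays and 2.94 without Lpl+/- 4 (limma adjusted p = 0.0427 and 0.00910). Flot2, a membrane scaffold gene, was 1.22-fold higher (limma adjusted p = 0.0325, and 0.0522 without Lpl+/- 4), with Lpl+/- 2 of the low set at 0.0549 inside the range of the high set. Mmp12, which encodes macrophage elastase, was 1.27-fold higher with no overlap (limma adjusted p = 0.0446, and 0.0803 without Lpl+/- 4).

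Etnppl, which encodes the enzyme that breaks down phosphoethanolamine, a precursor and product of membrane phospholipids, ran from -0.405 through -0.268 to -0.164 in the high set and from 0.0380 through 0.130 to 0.258 in the low set. All 6 livers of the high set lay below the pool and all 10 of the low set above it. Etnppl was 0.381-fold (limma adjusted p = 0.00231, and 0.00179 without Lpl+/- 4), the smallest adjusted p of the comparison. Its difference was -0.419 in wt and -0.420 in Lpl+/- livers. Etnppl and Steap4 were called in each of the 16 comparisons that left out 1 array, with a highest limma adjusted p of 0.0160 and 0.0478. Pgm3 was called in 11 of them, Flot2 in 5, Cgref1, Lrg1 and Saa4 in 4 each and Mmp12 in 3. Over 33 alternatives that changed the sets, the arrays, the values or the model, Etnppl was called in 28 (limma adjusted p from 3.36e-05 to 0.958) and Steap4 in 25 (limma adjusted p from 2.29e-04 to 0.643). The Etnppl call ended with the sign of wt 8 turned (limma adjusted p = 0.747), within wt or Lpl+/- livers alone (0.153 and 0.958) and in both splits at the widest gap of single serum amyloid genes, which left Lpl+/- 4 alone in the high set (0.350 each). The Steap4 call ended with the sign of wt 8 turned (limma adjusted p = 0.643), within wt or Lpl+/- livers alone (0.515 each), in both widest-gap splits (0.447 each), at a threshold of -0.5 (0.156), with quantile normalization (0.0872) and when the 3 arrays richest in limit values were left out (0.0975).

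**Figure D2:**
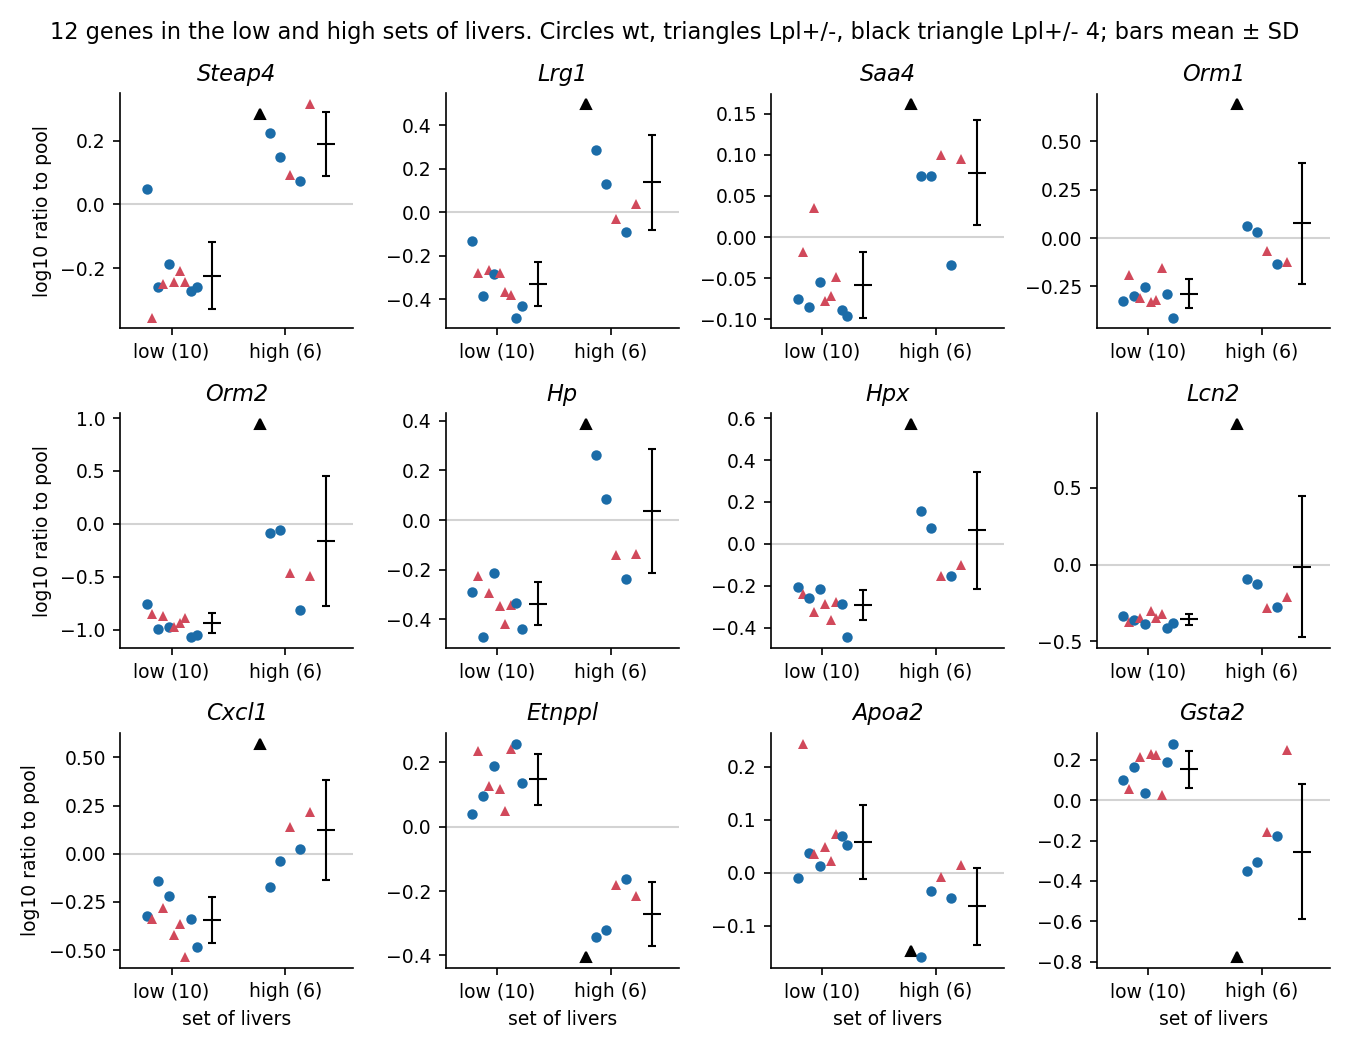
Log10 ratio to the pool of 12 genes in each liver of the low set (10) and the high set (6); circles are wt, triangles Lpl+/-, the black triangle is Lpl+/- 4, and bars are the mean ± SD. The sets do not overlap for Steap4, Lrg1, Orm1, Hpx, Lcn2 and Etnppl. Lpl+/- 4 is the extreme liver on the side of the high set for every gene shown other than Steap4 and Apoa2.

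Without Lpl+/- 4, 9 features (0.0244%) were called, 8 higher (0.0217%) and 1 lower (0.00272%), and 5 of them were among the 13. With wt 5 or wt 8 turned as well, 3 or 5 were called. Without Lpl+/- 4 the limma unadjusted p was under 0.05 for 9.81% of features, 6.06% in the higher and 3.75% in the lower direction. With all arrays these shares were 6.82% and 5.73% with wt 5 turned, and 3.27% and 2.96% with wt 8 turned. Counts of list members below for these repeats are to be read against these shares. Steap4, Cgref1 and Etnppl were called in both comparisons. Prg4, which encodes the lubricating proteoglycan 4, was 2.12-fold higher without Lpl+/- 4 (limma adjusted p = 0.0340) and stood at 2.54-fold with it (limma adjusted p = 0.0616). The probe assigned to Olfr854, an odorant receptor gene, was 3.54-fold higher without Lpl+/- 4 (limma adjusted p = 0.00509) and stood at 5.15-fold with it (limma adjusted p = 0.0727). Ffar4, a receptor gene for long-chain fatty acids, was also called (limma adjusted p = 0.0177) and is named here after its value was seen. With the score as a continuous measure in place of the sets, 761 features (2.07%) were called, 435 with a positive slope (1.18%) and 326 with a negative slope (0.885%), all 13 among them. Without Lpl+/- 4 the slope called 180 (0.489%), of which 131 were among the 761. Below, a count of called members refers to the comparison of the sets unless the slope is named.

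Most acute phase genes beyond the 3 scored ones stood higher in the high set, with few past the threshold in the comparison of the sets and more on the slope of the score. Of 29 measured genes for proteins raised in inflammation, 3 were called, 21 (72.4%) had a limma unadjusted p under 0.05 in the higher direction against 6.40% of all features, and 1 in the lower. The median difference of the list was 0.188, against -0.00142 over all features, and 0.125 against -0.00161 without Lpl+/- 4, when 18 members had such a p in the higher direction against 6.06% of all features. With the sign of wt 5 turned 2 members were called and 21 had such a p in the higher direction (median difference 0.202), and with wt 8 turned 0 were called and 17 had one (median difference 0.154), against 6.82% and 3.27% of all features. In 6 members the sets did not overlap, against 0.144% of all features. On the slope of the score, 18 of the 29 were called as positive and 0 as negative, against 1.18% and 0.885% of all features. Orm2, Orm1, Hp, Hpx and Lcn2 were called on the slope with all arrays (limma adjusted p from 0.000701 to 0.0252). They were also called without Lpl+/- 4 (limma adjusted p from 0.00303 to 0.02245). The slope was not fitted with a sign turned. Known members of this response were chosen for the list with earlier results of these data known, so these counts describe the livers and are not independent evidence.

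The orosomucoids are abundant plasma glycoproteins that bind drugs and damp inflammation. Orm2 ran from -0.819 through -0.275 to 0.944 in the high set and from -1.07 through -0.956 to -0.760 in the low set. The sets overlapped only because wt 1 of the high set (-0.819) lay below wt 9 of the low set (-0.760), and Lpl+/- 4 lay far above every other liver. Orm2 stood at 5.96-fold and at 3.57-fold without Lpl+/- 4 (limma adjusted p = 0.119 and 0.0893), with an exact two-sided permutation p of 0.000250. Orm1 stood at 2.31-fold with no overlap (limma adjusted p = 0.148) and Orm3 at 1.54-fold (limma adjusted p = 0.138). Orosomucoid genes are near-identical copies, and their probes may share signal.

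Among carriers of haem, iron and haemoglobin, Hp, which encodes haptoglobin, ran from -0.239 through -0.0262 to 0.387 in the high set and from -0.472 through -0.338 to -0.213 in the low set. The sets overlapped through wt 1, while Lpl+/- 4 and wt 8 were highest. Hp stood at 2.36-fold (limma adjusted p = 0.106). Hpx, the haem carrier hemopexin, stood at 2.27-fold with no overlap (limma adjusted p = 0.136). Lcn2, which encodes the siderophore-binding lipocalin 2, ran from -0.281 through -0.170 to 0.915 in the high set and from -0.415 through -0.356 to -0.299 in the low set. The sets did not overlap, but 1 liver set the size of the difference. Lcn2 stood at 2.21-fold with Lpl+/- 4 and 1.44-fold without it (limma adjusted p = 0.313 and 0.110).

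Of the other acute phase proteins, Apcs, the serum amyloid P component and the chief pentraxin of the mouse acute phase, stood at 2.93-fold (limma adjusted p = 0.218), and Crp, a minor pentraxin in mice, at 1.27-fold. The inter-alpha-trypsin inhibitor gene Itih4 stood at 1.89-fold with no overlap (limma adjusted p = 0.155) and Itih3 at 1.76-fold. Il1rn, the antagonist of interleukin 1, stood at 1.68-fold and Lbp, which binds bacterial lipopolysaccharide, at 1.59-fold. The 3 fibrinogen genes stood at 1.69-fold (Fga), 1.43-fold (Fgg) and 1.22-fold (Fgb). Mbl2, a mannose-binding lectin, stood in the opposite direction at 0.798-fold, while its relative Mbl1 stood at 1.32-fold. The protease inhibitor Serpina3n stood at 1.59-fold, whereas Hamp, the iron hormone hepcidin, stood at 1.13-fold and Cd14 at 1.02-fold with sets that overlapped broadly.

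Genes of the cytokine pathways that drive these proteins were mixed. In the list for IL-6, STAT3 and C/EBP signalling 0 of 20 were called, 5 (25%) had a limma unadjusted p under 0.05 in the higher and 0 in the lower direction, and the median difference was 0.0153. When Lpl+/- 4 was left out, 3 had such a p in the higher direction and the median was -0.0126. Il6 itself stood at 1.99-fold (limma adjusted p = 0.131), running from -0.158 through 0.00910 to 0.460 in the high set and from -0.333 through -0.244 to -0.114 in the low set. The overlap was small, through Lpl+/- 1 and wt 1 of the high set and wt 9 of the low set. On the slope of the score 3 of the 20 were called as positive and 0 as negative. Il6 was among them, with a limma adjusted p of 0.00109, and 0.00724 without Lpl+/- 4. Socs3, the feedback inhibitor of STAT3, stood at 2.09-fold (limma adjusted p = 0.193), Stat3 at 1.48-fold (limma adjusted p = 0.197) and Bcl3, a nuclear regulator of NF-kappaB, at 1.45-fold (limma adjusted p = 0.359).

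In the list for IL-1, TNF and NF-kappaB signalling 0 of 25 were called, 5 (20%) had a limma unadjusted p under 0.05 in the higher and 1 in the lower direction, with a median difference of 0.00523. These counts were 3 and 0 without Lpl+/- 4, and the median was -0.000556. The receptor gene Il1r1 stood at 1.79-fold, the nuclear coactivator Nfkbiz at 1.47-fold, the TNF receptor Tnfrsf1a at 1.35-fold and the adhesion molecule Icam1 at 1.15-fold (limma adjusted p from 0.148 to 0.377). Of 16 chemokines 0 were called, 4 (25%) had a limma unadjusted p under 0.05 in the higher and 2 (12.5%) in the lower direction, and the median difference was -0.00309. These counts were 4 and 1 without Lpl+/- 4, with a median of 0.000988, and with wt 8 turned 4 and 0, with a median of 0.00950.

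Cxcl1, which attracts neutrophils and whose promoter is printed above, ran from -0.172 through 0.0828 to 0.572 in the high set and from -0.537 through -0.338 to -0.141 in the low set. The overlap came from wt 8 alone, although wt 8 had the second highest score. Cxcl1 stood at 2.94-fold (limma adjusted p = 0.0727), with a difference of 0.240 in wt and 0.698 in Lpl+/- livers. Ccl7 stood at 1.29-fold and Ccl6 at 1.27-fold, both ligands of myeloid cells, and Cxcl12 at 1.14-fold. The interferon-induced Cxcl10 stood at 0.754-fold and Ccl5 at 0.815-fold.

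Among 14 genes of metallothioneins and of zinc and iron handling, 0 were called, and 3 (21.4%) each had a limma unadjusted p under 0.05 in the higher and the lower direction. Mt2, a zinc-binding metallothionein induced by IL-6, zinc and glucocorticoids, ran from -0.469 through -0.0267 to 0.821 in the high set and from -1.17 through -0.880 to -0.117 in the low set. The sets overlapped, since 4 livers of the low set, wt 9, wt 2, Lpl+/- 8 and Lpl+/- 3, lay between -0.331 and -0.117. Mt2 stood at 5.99-fold and Mt1 at 1.66-fold (limma adjusted p = 0.179 and 0.241). The zinc importer Slc39a14 stood at 1.26-fold, and Slc40a1, the iron exporter ferroportin, at 0.773-fold (limma adjusted p = 0.276 and 0.119).

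Of 29 complement and coagulation genes 0 were called, 9 (31.0%) had a limma unadjusted p under 0.05 in the higher and 0 in the lower direction, and the median difference was 0.0257. Of these genes 5 had such a p in the higher direction without Lpl+/- 4 (median difference 0.0107), and with wt 8 turned 3 had one in the higher and 1 in the lower direction. C8b, a subunit of the membrane attack complex, stood at 1.44-fold, Hc, which encodes complement C5, at 1.32-fold, C6 at 1.28-fold and the regulator C4bp at 1.25-fold (limma adjusted p from 0.188 to 0.229). Of 20 interferon response genes 0 were called, 3 (15%) had a limma unadjusted p under 0.05 in the higher and 0 in the lower direction, with Mx2 at 1.26-fold, Stat2 at 1.22-fold and Oasl1 at 1.20-fold (limma adjusted p from 0.144 to 0.407). This count was 1 without Lpl+/- 4.

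Plasma proteins that are lowered in inflammation stood slightly lower in the high set. Of 19 measured, 0 were called, 0 had a limma unadjusted p under 0.05 in the higher and 7 (36.8%) in the lower direction, against 5.34% of all features, and the median difference was -0.0292. With wt 8 turned 2 had such a p in the lower direction. Serpina6, which encodes the carrier of glucocorticoids in plasma, stood at 0.662-fold, Apoa2 at 0.755-fold, the HDL-bound paraoxonase Pon1 at 0.832-fold and transthyretin (Ttr) at 0.882-fold (limma adjusted p from 0.179 to 0.267). Of 17 genes of HDL and the carriers of serum amyloid A, 0 were called, 2 (11.8%) had a limma unadjusted p under 0.05 in the higher and 3 (17.6%) in the lower direction. Apoa4 stood highest at 1.96-fold (limma adjusted p = 0.0981), running from -0.178 through 0.166 to 0.331 in the high set and from -0.281 through -0.155 to -0.0435 in the low set. The overlap came from Lpl+/- 7. Hepatic lipase (Lipc) stood at 0.838-fold (limma adjusted p = 0.246).

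Genes of drug, steroid and bile acid metabolism leaned lower in the high set. Of 23 cytochrome P450 genes 0 were called, 2 (8.70%) had a limma unadjusted p under 0.05 in the higher and 10 (43.5%) in the lower direction, and the median fold was 0.794, with 20 of 23 below 1. Without Lpl+/- 4, 4 had such a p in the lower direction, against 3.75% of all features, and with wt 5 or wt 8 turned 7 or 2 had one, against 5.73% or 2.96%. Cyp2a4, a steroid hydroxylase, stood at 0.418-fold (limma adjusted p = 0.293), running from -0.662 through -0.357 to 0.0686 in the high set and from -0.290 through 0.0617 to 0.384 in the low set. The sets overlapped through Lpl+/- 1, wt 1 and Lpl+/- 7, and Cyp2a4 and Cyp2a5 are near-identical copies. Cyp4f14 stood at 0.749-fold with no overlap, the only P450 gene so separated in the lower direction against 0.0679% of all features, and Cyp2c29 at 0.753-fold, whereas Cyp3a13 stood at 1.43-fold (limma adjusted p = 0.106, 0.263 and 0.106).

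Among 17 genes of oxidative stress and NRF2 targets 0 were called, 1 (5.88%) had a limma unadjusted p under 0.05 in the higher and 8 (47.1%) in the lower direction, with a median difference of -0.0526. The count in the lower direction was 7 without Lpl+/- 4 and 2 with wt 8 turned. Gsta2, a glutathione S-transferase, ran from -0.778 through -0.243 to 0.247 in the high set and from 0.0251 through 0.178 to 0.281 in the low set. The overlap came from Lpl+/- 7 alone, at 0.247. Gsta2 stood at 0.392-fold (limma adjusted p = 0.148), Gsta1 at 0.465-fold, Gstm3 at 0.576-fold and Gsta4 at 0.585-fold. Glutathione transferases of 1 class resemble each other closely, so their probes may share signal. Of 17 genes of bile acid synthesis and transport 0 were called, 1 (5.88%) had a limma unadjusted p under 0.05 in the higher and 7 (41.2%) in the lower direction, with a median difference of -0.0667. The count in the lower direction was 3 without Lpl+/- 4 (median difference -0.0382) and 3 with wt 8 turned. Cyp27a1, which hydroxylates sterol side chains, stood at 0.805-fold (limma adjusted p = 0.106), the bile salt exporter Abcb11 at 0.831-fold and the sterol exporter Abcg5 at 0.695-fold, while Cyp7b1, an oxysterol hydroxylase, stood at 1.62-fold.

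Of 18 fatty acid synthesis genes 0 were called, 0 had a limma unadjusted p under 0.05 in the higher and 7 (38.9%) in the lower direction, with a median difference of -0.0874. That count was 4 without Lpl+/- 4 (median difference -0.0690) and 0 with wt 8 turned (median difference -0.0368). The regulator Srebf1 stood at 0.659-fold, the desaturase Scd1 at 0.619-fold, ATP citrate lyase (Acly) at 0.699-fold and the lipase Pnpla3 at 0.815-fold (limma adjusted p from 0.280 to 0.368). Scd1 ran from -0.478 through -0.269 to 0.238 in the high set and from -0.312 through 0.0240 to 0.133 in the low set, with wt 8, Lpl+/- 4 and wt 7 lowest and wt 1 highest of all livers. Of 13 cholesterol synthesis genes 0 were called and 2 (15.4%) had a limma unadjusted p under 0.05 in the lower direction, Insig1 at 0.711-fold and Stard4 at 0.740-fold. The list stood higher in the high set in 3 of 13 members in wt livers (median difference -0.0861) and in 11 of 13 in Lpl+/- livers (median difference 0.0698), and no member passed the limma test of that difference. Over both genotypes its median was -0.000173, and it was 0.0139 or 0.0225 with wt 5 or wt 8 turned.

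Of 20 PPAR alpha targets and fatty acid oxidation genes 0 were called, and 4 (20%) had a limma unadjusted p under 0.05 in the higher and 0 in the lower direction. The count in the higher direction was 7 without Lpl+/- 4, 6 with wt 5 turned and 1 with wt 8 turned. Fgf21, a hormone of the fasted liver, ran from -0.224 through 0.0217 to 0.345 in the high set and from -0.705 through -0.340 to -0.0358 in the low set. Only wt 8, wt 7 and Lpl+/- 4 lay above the low set. Fgf21 stood at 2.58-fold (limma adjusted p = 0.146), Cyp4a10 at 1.47-fold, Acot2 at 1.30-fold and Cpt1a at 1.15-fold. The list stood higher in wt livers of the high set in 18 of 20 members (median difference 0.103) and in Lpl+/- livers in 9 of 20 (median difference -0.00309), but no member passed the test of that difference. Of 14 genes of gluconeogenesis and insulin response 0 were called, with glycogen phosphorylase (Pygl) at 0.781-fold and Ppargc1a at 0.848-fold.

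Chaperones and genes of the secretory pathway stood higher in part. Of 14 heat shock genes 0 were called, 6 (42.9%) had a limma unadjusted p under 0.05 in the higher and 0 in the lower direction, with Hspb1 at 1.56-fold and Hsp90aa1 at 1.53-fold (limma adjusted p = 0.162 and 0.179). This count was 4 without Lpl+/- 4, and with wt 8 turned 2. Of 22 genes of the unfolded protein response and secretion 0 were called, 4 (18.2%) had a limma unadjusted p under 0.05 in the higher and 0 in the lower direction. The median difference was 0.0462, and 0.00641 without Lpl+/- 4. Asns, which encodes asparagine synthetase, ran from -0.0659 through 0.0199 to 0.225 in the high set and from -0.454 through -0.248 to -0.111 in the low set. The sets did not overlap, and Asns stood at 2.07-fold (limma adjusted p = 0.0568). The chaperone Dnajc3 stood at 1.36-fold, the translocon gene Ssr4 at 1.19-fold and the transcription factor Xbp1 at 1.19-fold.

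**Figure D3:**
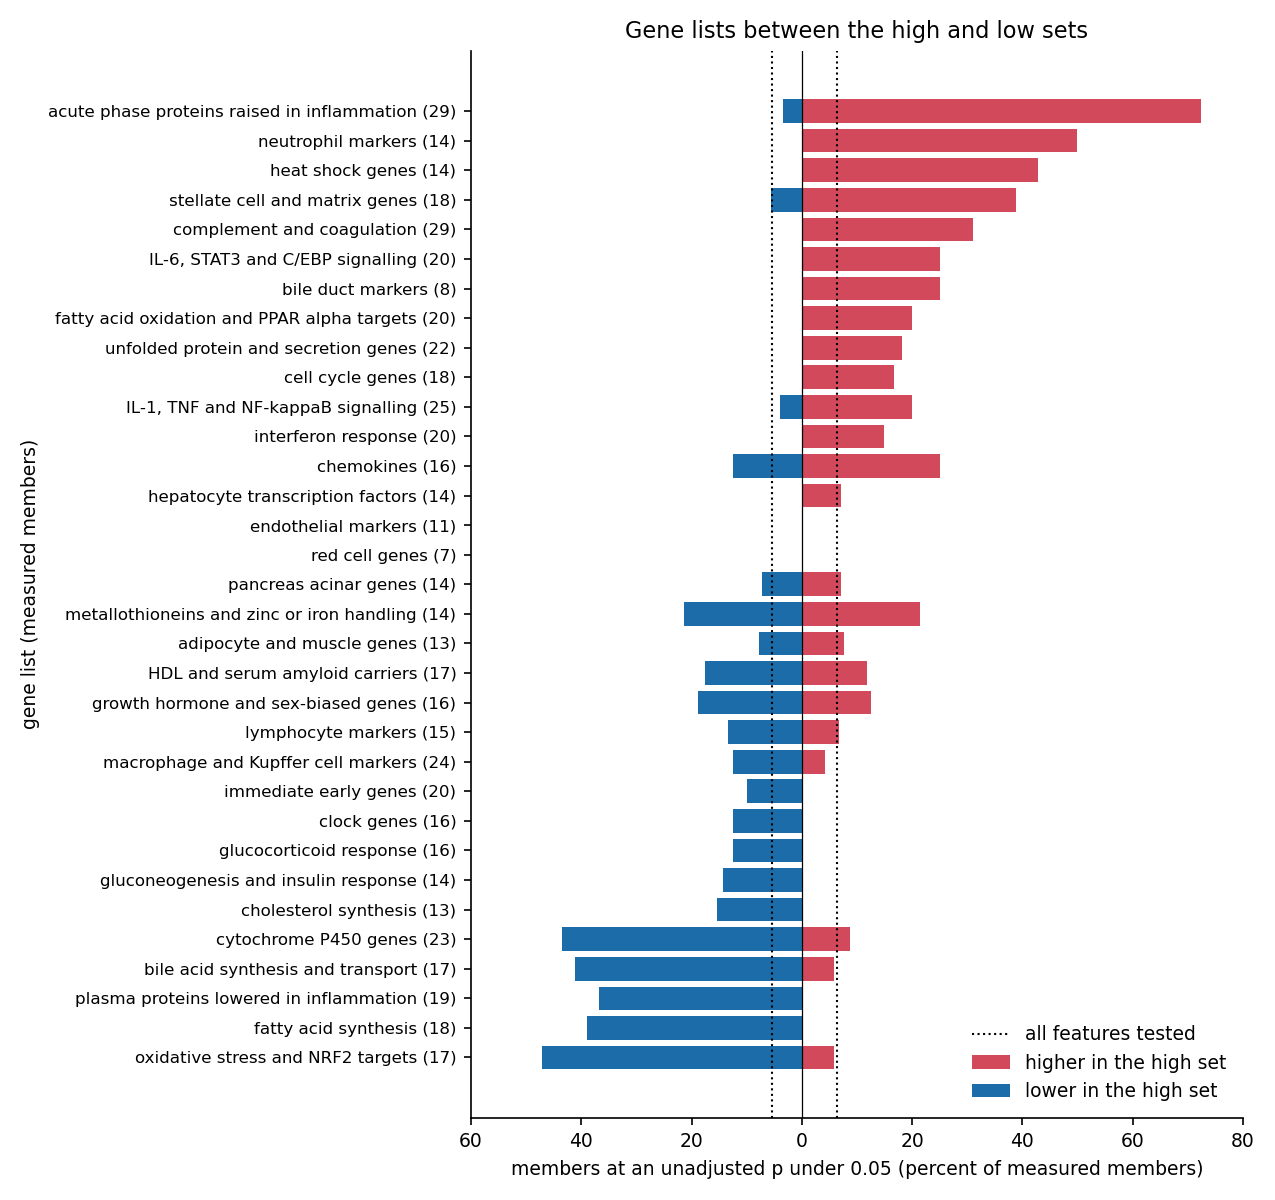
Share of the measured members of each gene list with a limma unadjusted p under 0.05 between the sets, to the right for members higher in the high set and to the left for those lower; dotted lines give the shares over all features tested, 6.40% and 5.34%. Acute phase genes reach 72.4% on the right, while oxidative stress and NRF2 targets reach 47.1% on the left.

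Markers of other cells moved with the score in part. In bulk liver, fewer cells of a type and less RNA per cell cannot be told apart. Of 14 neutrophil markers 0 were called, 7 (50%) had a limma unadjusted p under 0.05 in the higher and 0 in the lower direction, and the mean of the list ran from -0.0854 to 0.151 in the high set and from -0.0839 to -0.00223 in the low set. The count in the higher direction was 6 without Lpl+/- 4, against 6.06% of all features. It was 5 (35.7%) with wt 8 turned, against 3.27%. The calprotectin subunits S100a8 and S100a9 stood at 1.67-fold and 1.78-fold (limma adjusted p = 0.221 and 0.246), and Chil3 and the receptor Cxcr2 at 1.29-fold and 1.31-fold. S100a8 ran from -0.220 through 0.0505 to 0.359 in the high set and from -0.267 through -0.176 to 0.0485 in the low set, overlapping through Lpl+/- 1, wt 1, Lpl+/- 7 and wt 9. Granule genes stood near 1, with Elane at 1.05-fold, Mmp8 at 1.03-fold and Ngp at 1.03-fold. Lcn2 is in this list and in the acute phase list. The part of these markers in the other results was not tested.

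Of 24 macrophage and Kupffer cell markers 0 were called, 1 (4.17%) had a limma unadjusted p under 0.05 in the higher and 3 (12.5%) in the lower direction, and the list mean ran from -0.124 to 0.0688 in the high set and from -0.107 to 0.0893 in the low set. Leaving out Lpl+/- 4 made these counts 0 and 1. In wt livers 16 of 24 members stood higher in the high set (median difference 0.0411) and in Lpl+/- livers 5 of 24 did (median difference -0.0329), and no member passed the limma test of that difference. The MHC class II genes H2-Eb1 and H2-Ab1 stood at 0.710-fold and 0.910-fold, the mannose receptor Mrc1 at 0.887-fold and Lgals3 at 1.19-fold, while the Kupffer cell marker Clec4f stood at 0.990-fold. Of 18 stellate cell and matrix genes 0 were called, 7 (38.9%) had a limma unadjusted p under 0.05 in the higher and 1 (5.56%) in the lower direction, with a list mean of -0.0333 to 0.0374 in the high and -0.0938 to 0.00964 in the low set. Without Lpl+/- 4, 4 had such a p in the higher direction. The collagens Col1a1 and Col3a1 stood at 1.67-fold and 1.47-fold, Col1a2 at 1.09-fold and Reln at 0.862-fold, and Lrat, the enzyme that stores retinol in stellate cells, at 1.01-fold. The part of both lists in the other results was not tested.

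Of 15 lymphocyte markers 0 were called, with Jchain of plasma cells at 1.31-fold and the T cell gene Cd3g at 0.798-fold, and a list mean of -0.0285 to 0.0185 in the high and -0.0437 to 0.0352 in the low set. Of 11 endothelial markers 0 were called and 0 had a limma unadjusted p under 0.05, with Tek at 0.897-fold. Of 8 bile duct markers 0 were called and 2 (25%) had a limma unadjusted p under 0.05 in the higher direction, Spp1 at 1.36-fold and Krt7 at 1.08-fold, and without Lpl+/- 4 this count was 1. Of 7 red cell genes 0 were called, with Hbb-b1 at 1.17-fold. Their part in the results was not tested.

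Outside these lists, the genes that followed by rank were not called. In the higher direction Paqr9, a progestin and adiponectin receptor family gene, stood at 1.80-fold, the ribonuclease gene Ang2 at 1.62-fold, Map7d1 at 1.45-fold and the homeobox gene Barhl2 at 1.44-fold (limma adjusted p from 0.0631 to 0.0727), and the sets overlapped for all 4. In the lower direction Hal, which breaks down histidine, stood at 0.656-fold, Afmid, the kynurenine formamidase of tryptophan breakdown, at 0.690-fold, Qdpr, which regenerates tetrahydrobiopterin, at 0.758-fold, and Hyi, a hydroxypyruvate isomerase gene, at 0.859-fold (limma adjusted p from 0.0616 to 0.0806). The sets did not overlap for Afmid and Qdpr. Retreg1, a receptor for autophagy of the endoplasmic reticulum, stood at 0.669-fold, and Gabarapl1, which encodes an autophagosome protein, at 0.721-fold with no overlap (limma adjusted p = 0.0727 and 0.0568). Nrn1, Dlgh3, Mtx3, Sash1, Syt6, Ociad2 and Hapln2 stood between 0.759-fold and 0.854-fold (limma adjusted p from 0.0616 to 0.106).

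The sets held both genotypes in equal numbers, and serum amyloid A was not shown to differ by genotype. The log ratio of Saa1 averaged -0.834 ± 0.731 in the 8 Lpl+/- livers and -0.839 ± 0.675 in the 8 wt livers, errors being SD (exact two-sided permutation p = 0.988, limma adjusted p = 0.998). Saa2 and Saa3 differed by 0.0121 and 0.0476 (exact two-sided permutation p = 0.972 and 0.910). With the sign of wt 5 turned, the difference of Lpl+/- minus wt became -0.395 for Saa1, -0.406 for Saa2 and -0.362 for Saa3 (limma adjusted p from 0.955 to 0.960). The spread within each genotype was larger than these differences, and Lpl+/- 4 and wt 8 led their genotypes. Lpl ran from -0.573 through -0.145 to -0.0106 in the high set and from -0.573 through -0.135 to 0.0496 in the low set. The sets overlapped throughout, with Lpl+/- livers low in both, and Lpl stood at 0.979-fold (limma adjusted p = 0.970).

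The difference between the sets was estimated in each genotype from 3 livers against 5. The test of whether it differed between genotypes called 0 of 36821 features (0%, limma), with 729 (1.98%) at an unadjusted p under 0.05, and 0 with the sign of wt 5 or wt 8 turned (632 and 644 at an unadjusted p under 0.05). Within wt livers alone and within Lpl+/- livers alone 0 features were called, with 2671 and 1730 at a limma unadjusted p under 0.05. All 13 features called with both genotypes had the same sign in each. They were chosen by the joint fit of these same arrays, which makes that likely beforehand, so it is a description only. Of the 29 acute phase genes, 25 stood higher in the high set in both genotypes, with a median difference of 0.132 in wt and 0.197 in Lpl+/- livers. Orm2 differed by 0.649 in wt and 0.901 in Lpl+/- livers, and Steap4 by 0.335 and 0.491. Of 23 cytochrome P450 genes 18 stood lower in both genotypes, and of 19 plasma proteins lowered in inflammation 12 did. Over all 36821 features, 11121 stood higher and 12419 lower in both genotypes.

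**Figure D4:**
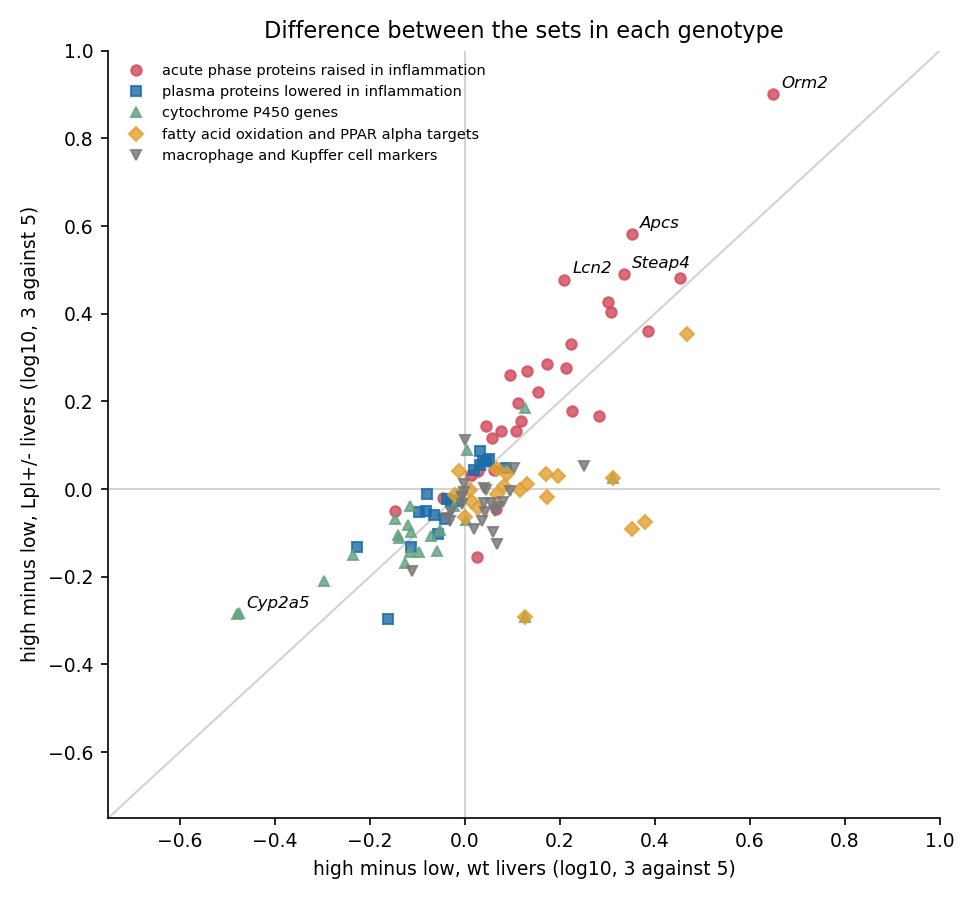
Difference in log10 ratio between the high and low sets in wt livers (x axis, 3 against 5) and in Lpl+/- livers (y axis, 3 against 5) for the members of 5 gene lists; the diagonal marks equal differences. Of 29 acute phase genes, 25 lie in the upper right, with Orm2 at 0.649 and 0.901, and 2 in the lower left. Of 20 PPAR alpha targets and genes of fatty acid oxidation, 18 lie above 0 on the x axis and 9 above 0 on the y axis, with Fgf21 at 0.469 and 0.354.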

How the data were processed

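Liver RNA of 8 Lpl+/- and 8 wt mice was compared with a pool of 9 wt livers on 2-colour arrays with swapped dyes, per the labels. The deposited values are log ratios, taken here as log10 because they end at exactly 2 and -2, a 100-fold limit. The log base, the joining of swapped hybridizations, background correction and normalization are not given in the sources used here. Direction (mouse over pool) is likely, from titles, dyes and low Lpl in Lpl+/- mice. No value was rescaled.

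Of 39556 probes, 23283 had 1 gene symbol, 16273 none and 0 several. Probes of 1 symbol were averaged, which left 36824 features, and 5076 symbols were updated through a RefSeq table of GRCm38.p6. Sets were compared over 36821 features, without the 3 scored genes, with limma 3.58.1 in R 4.3.3 (lmFit, eBayes, two-sided) and genotype as covariate. A feature was called at a Benjamini-Hochberg adjusted p under 0.05. Single genes had exact permutation tests over samples. The code was tested on simulated data. Alternatives changed the threshold of the score, the score, normalization, covariates, probes, array signs and the arrays used.

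Members and lists (33 lists, 588 genes, 548 measured) were chosen with earlier results of these data known. Named genes were Lcn2, Orm1, Orm2, Hp, Hpx, Mt1, Mt2, S100a8, S100a9 and Lpl, 15 genes in each direction by size among those called, filled by rank of p, and the 4 members of each described list that ranked first by p. Clone names were not named. Other list members were named after their values were seen. Groups share replicate numbers, but whether these pair the mice is not known, and the main model did not use them. Of 7 pairs with a shared number, 3 had a correlation of deviations over 0.1 (range -0.240 to 0.379), which does not settle it. The mice of pairs 1, 2, 5, 6 and 7 fell in the same set, and those of pairs 4 and 8 did not.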

Additional observations from a re-analysis of the deposited data

Results flagged for a closer look

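Within a set, single livers stood far from the others for 7 of the 86 groups of values examined, where a rate of 1 in 20 gives about 4.3. Many of the genes were named for their difference between the sets, so that rate need not hold for them. Lpl+/- 4 stood apart in the high set for Lcn2 (0.915, next liver -0.0916), Orm1 (0.691, next liver 0.0615) and Mt1 (0.516, next liver 0.0597). In the low set, wt 9 stood apart for Saa2 (-1.01, next liver -1.36), Steap4 (0.0474, next liver -0.189) and Prg4 (-0.0748, next liver -0.226), in each case toward the high set. Saa1, Saa2 and Saa3 formed the sets, so the flag of Saa2 is a description only, and the rate of 1 in 20 does not apply to these genes. The synaptotagmin gene Syt6 stood apart in wt 6 (-0.00270, next liver 0.0208), the lowest of the low set.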

How the results depend on the processing

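The count of 13 called features depended on the arrays used. It was 2 without wt 7, 4 without wt 2 or Lpl+/- 5, 5 without wt 5 or wt 8, 6 without wt 4, wt 6, Lpl+/- 3 or Lpl+/- 6, 8 without Lpl+/- 2, 42 without Lpl+/- 7 and 94 without wt 9. It was 0 in wt or Lpl+/- arrays alone (2671 and 1730 at a limma unadjusted p under 0.05), 32 with a threshold of -0.5, 122 with the clock score as a further covariate, 1 with quantile normalization, 2 with the sign of wt 8 turned and 761 with the score as a slope. Splitting at the widest gap of Saa3, or of Saa1 and Saa2, put Lpl+/- 4 alone in the high set and called 651, the lone array being assumed to vary like the others. Chosen after seeing the data, leaving out the 3 arrays with most values at the limits gave 2 and leaving out Lpl+/- 7 and wt 9 gave 86. Whether replicate numbers pair the mice is not known, and the replicate block gave 360. The count of 9 without Lpl+/- 4 ranged from 5 (also without Lpl+/- 1) to 41 (also without wt 9), with 27 also without wt 1 and 19 also without Lpl+/- 7, and, chosen after seeing the data, with the sign of wt 5 or wt 8 turned it was 3 or 5. The difference between genotypes ranged with 1 array left out from -0.187 to 0.129 for Saa1, from -0.185 to 0.151 for Saa2 and from -0.190 to 0.180 for Saa3, and with quantile normalization it was -0.0705, -0.0833 and -0.0388. With wt 5 turned, also chosen later, it was -0.395, -0.406 and -0.362. The Lpl difference between the sets changed sign in Lpl+/- arrays alone (0.0197), with the replicate block (0.0536), as a slope (0.0104), at the widest gap (0.170) and without Lpl+/- 1 (0.0298) or Lpl+/- 6 (0.0120), with a lowest value of -0.0424 without Lpl+/- 4, and Ffar4 did so at the widest gap (-0.0434). The causes were not tested. Beyond these, wt 5 turned gave 9, and a robust variance, centred medians and values at the limits left out gave 13 each. A threshold of -0.9 forms identical sets and so tests nothing.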

Other observations

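Other lists had no called member. In some, the share at a limma unadjusted p under 0.05 exceeded that of all features, 6.40% in the higher and 5.34% in the lower direction. Of 18 cell cycle genes 0 were called (limma), and 3 (16.7%) had an unadjusted p under 0.05 in the higher and 0 in the lower direction, with topoisomerase Top2a at 1.16-fold, the checkpoint kinase Bub1 at 1.18-fold and Cdk1 at 1.10-fold. Of 16 growth hormone and sex-biased genes 0 were called, with the estrogen sulfotransferase Sult1e1 at 1.64-fold, Cyp2b9 at 0.558-fold and the growth hormone receptor Ghr at 0.836-fold. Sult1e1 was highest in Lpl+/- 1, at 0.733. Of 16 glucocorticoid response genes 0 were called, with Hsd11b1, which regenerates active glucocorticoid, at 0.812-fold and Klf9 at 0.861-fold. Of 20 immediate early genes 0 were called, with Egr2 at 0.772-fold and Ier2 at 0.815-fold. Of 16 clock genes 0 were called, with Cry1 at 0.637-fold and Nr1d1 at 0.824-fold (limma adjusted p = 0.148 and 0.173), both repressors of the clock.

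Of 14 hepatocyte transcription factors 0 were called, with Foxa1 at 1.27-fold and Cebpa at 0.870-fold. Of 14 pancreas acinar genes 0 were called, with Ctrb1 at 1.15-fold and Amy2 at 0.900-fold. Of 13 adipocyte and muscle genes 0 were called, with Ckm at 0.918-fold and Lep at 1.14-fold. The growth hormone and sex-biased, glucocorticoid response, immediate early, clock, hepatocyte factor, pancreas, adipocyte and muscle, and red cell lists are 8 short lists. At most 3 members of each had a limma unadjusted p under 0.05 in any 1 direction. In the lower direction this was 18.8% of growth hormone and sex-biased genes, and 12.5% each of clock and glucocorticoid response genes, against 5.34% of all features. In the higher direction it was 12.5%, 0% and 0% of these lists, against 6.40%. No red cell gene had such a p.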
